A study of Mus musculus with 6 samples.

Results

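The genes described here are the classical cadherins and the non-clustered protocadherins of the mouse, taken by name as the protein-coding genes called *Cdh* or *Pcdh* with a number (an x may follow for the protocadherins). GENCODE M21 gave 35 such genes of the 53801 mouse genes in the deposited values, 23 *Cdh* and 12 *Pcdh* genes. They were measured by mRNA sequencing in 6 clonal lines of MIN6, a mouse insulinoma line that serves as a β cell model, with 1 library per clone. The 3 control clones carried Cas9 and a gRNA for intron 2 of *Snd1*, and the 3 *Snd1* KO clones carried Cas9 and a gRNA for exon 2. All 6 lines came from MIN6 cells that already expressed Cas9, received the gRNA by lentivirus, were selected with puromycin and were grown from single cells. Each value therefore describes 1 clone, and every p-value measures the spread between clones of a group.

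Cadherins are membrane proteins whose extracellular repeats, held rigid by calcium, bind cadherins of a neighbouring cell. Classical type I and type II cadherins end in a cytoplasmic tail that binds p120-catenin and β-catenin, and through α-catenin the actin cytoskeleton, which makes the adherens junction. In pancreatic islets, E-cadherin (*Cdh1*) and N-cadherin (*Cdh2*) join β cells to each other. Non-clustered protocadherins have single genes outside the protocadherin clusters, lack the catenin-binding tail and are best known from the nervous system.

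Values are TPM, the reads on a gene divided by its length and scaled to the same total in every library. With annotated lengths, 93.3% to 93.8% of the values above 0 in a clone were whole multiples of what 1 read is worth, and the reads recovered from the values numbered 25.9 to 33.1 per clone, in units of 1000000 reads. Beta cell markers were present in all clones, with a summed level of 57407 to 90599 TPM in control and 65163 to 97770 TPM in the *Snd1* KO lines over 10 markers, mostly *Iapp*, *Ins1*, *Ins2* and *Chga*. *Slc2a2* of that list, the gene of the glucose transporter GLUT2, had 160, 65.0 and 172 TPM in control and 91.5, 40.5 and 32.8 TPM in *Snd1* KO clones, so the groups overlapped (log2 fold change −1.27, adjusted p = 0.607, limma). Of the markers for other cell types, the 6 for acinar and duct cells summed to at most 1.20 TPM in any clone with *Cpa1* and *Ptf1a* at 0, the 7 for endothelial cells to at most 1.42 TPM and the 5 for leukocytes to at most 3.16 TPM. The 8 fibroblast markers summed to 0.379 to 7.35 TPM in control and 1.06 to 1.58 TPM in *Snd1* KO clones. The 6 neuron and glia markers summed to 38.8 to 66.3 and 55.9 to 66.6 TPM, with *Sox10* at 0, and the 6 alpha and delta cell markers to 175 to 314 and 55.3 to 1102 TPM, almost all of it *Gcg*, with *Hhex* at 0. *Snd1* itself had 113, 119 and 112 TPM in the control lines and 14.7, 57.1 and 19.9 TPM in the *Snd1* KO lines, so that *Snd1* KO 2 kept the most. In bulk RNA, fewer cells of a kind and less RNA per cell cannot be told apart.

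Of the 35 genes, 21 had a mean of at least 0.5 TPM over the 6 clones and entered the test. *Cdh19* and *Cdh10* passed this filter only through the control clones, with *Snd1* KO means under it. The other 14 are described by their reads further on. In the plot of levels by clone, *Cdh19*, *Cdh6* and *Cdh1* are the genes with the widest spread between clones.

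**Figure D1:**
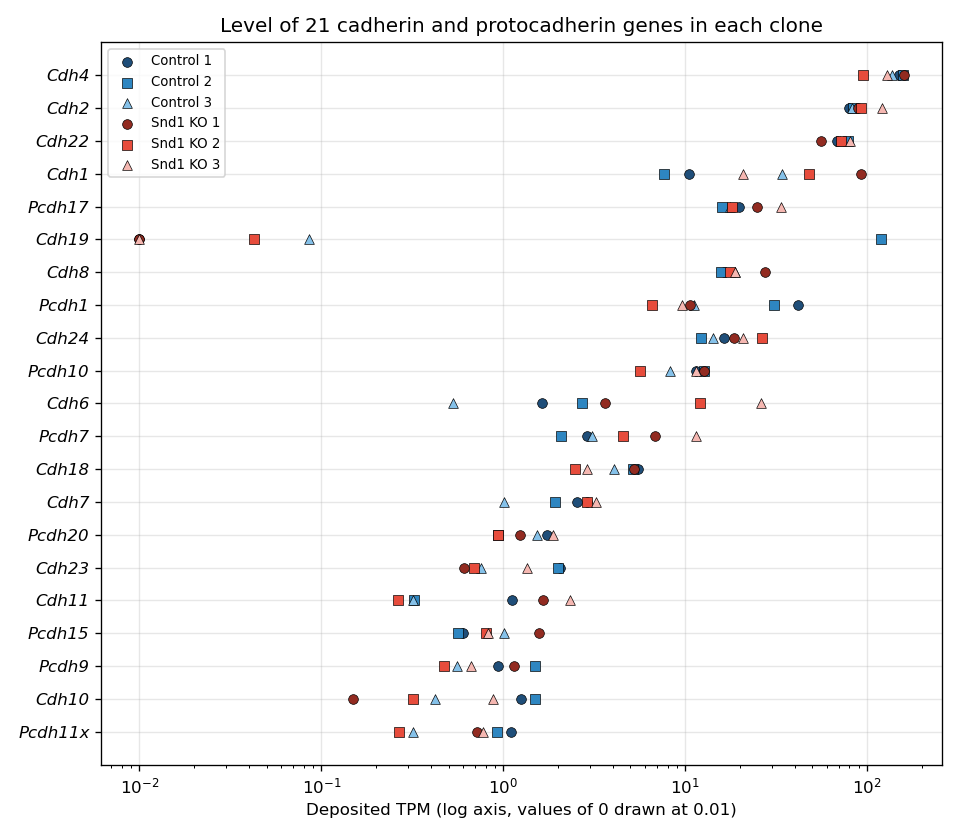
Deposited TPM of the 21 cadherin and protocadherin genes that entered the test, 1 marker per clone on a log axis, control clones in blue and *Snd1* KO clones in red, with values of 0 drawn at 0.01. *Cdh4* lies between 95.3 and 159 TPM in the 6 clones, whereas *Cdh19* lies at 120 TPM in Control 2 and at most 0.0860 TPM in the others.

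To compare genes with each other, levels were recomputed per length from the recovered reads with each exonic base counted once, because the deposited TPM divide by the summed exons of all transcripts. On this per-length scale, also scaled like TPM, *Cdh4*, which encodes the type I cadherin R-cadherin, had the highest level in control clones, at 117 ± 8.10 TPM (SD, n = 3). *Cdh2* followed at 76.1 ± 2.31 and *Cdh22*, a type II cadherin, at 75.9 ± 5.50 TPM (SD, n = 3 each), and these neighbours overlapped between clones. *Cdh4* at its lowest control level of 109 lay above the highest control level of *Cdh22*, 81.9 TPM. No clone of *Pcdh1* reached the level of these 3 genes. Next on the per-length scale stood *Pcdh1*, with 35.03 ± 19.2, and *Cdh8*, with 31.7 ± 3.22 TPM (SD, n = 3 each), which also overlapped, and then *Cdh1* with 20.02 ± 16.7 TPM (SD, n = 3), whose range over the clones reached into both. *Pcdh10* (11.8 ± 2.47), *Pcdh17* (11.4 ± 1.20), *Cdh24* (10.8 ± 1.48) and *Cdh18* (9.55 ± 1.44 TPM, SD, n = 3 each) came next, and of these each overlapped with its neighbours among the 4. *Cdh19* had a mean that came from 1 clone and has no place in the order. The order by deposited TPM differed from this per-length order in 15 of the 21 places.

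A few genes thus made up most of the family in every clone. *Cdh4*, *Cdh2* and *Cdh22* together held 60.2%, 55.0% and 63.6% of the summed per-length level of all 35 genes in control clones 1 to 3, and 50.1%, 58.0% and 61.2% in *Snd1* KO clones 1 to 3. *Cdh4* was the highest gene in the 3 control clones and in *Snd1* KO 1, and *Cdh2* was the highest in *Snd1* KO 2 and *Snd1* KO 3. The 12 protocadherin genes held 21.1%, 14.9% and 12.0% in control and 13.1%, 10.1% and 15.3% in *Snd1* KO clones, so the groups overlapped. The summed per-length level of the whole family was 437, 516 and 410 TPM in control and 537, 407 and 490 TPM in *Snd1* KO clones, and again the groups overlapped.

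**Figure D2:**
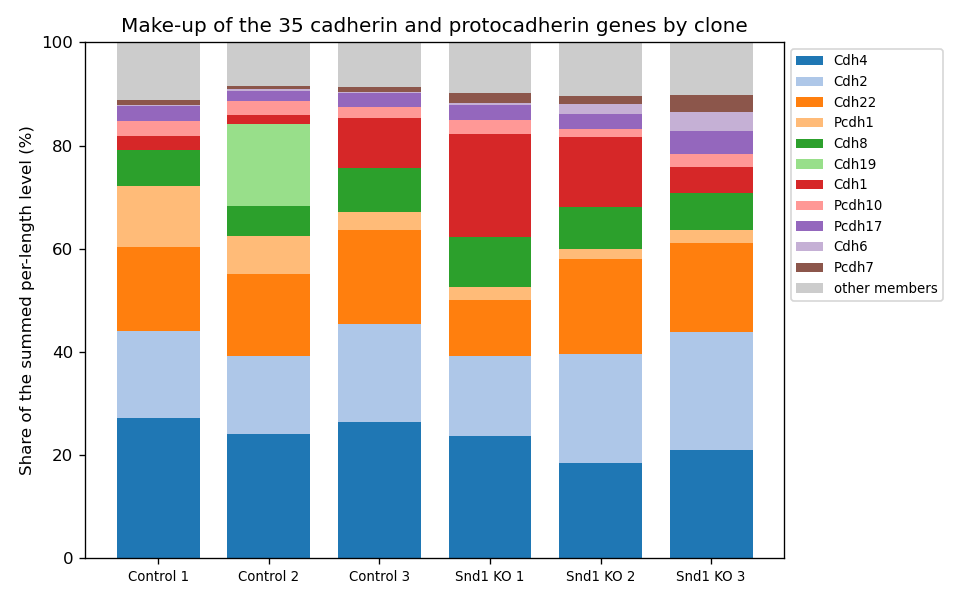
Share of each gene in the summed per-length level of the 35 cadherin and protocadherin genes, in percent, 1 bar per clone, with the genes not listed drawn in grey. *Cdh4*, *Cdh2* and *Cdh22* hold 50.1% to 63.6% of every bar, *Cdh1* is widest in *Snd1* KO 1 with 19.996%, and *Cdh19* is visible in Control 2 with 15.9%.

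To determine which of these genes differed between *Snd1* KO and control clones, log2(TPM + 1) was compared with limma across the 17823 genes that passed the same expression filter. A gene was called at a 2-fold change or more with an adjusted p-value under 0.05. By this rule 0 of the 21 cadherin genes were called, beside 0.00561% of all genes tested, and their adjusted p-values ran from 0.568 to 0.981 (limma). *Snd1*, the targeted gene, was itself not called (log2 fold change −2.11, SE 0.45, adjusted p = 0.511, limma). A missing call therefore does not show that a gene is unchanged. An unadjusted p-value under 0.05 was reached by 4 of 21, or 19.05%, beside 7.96% of all genes tested. These were *Cdh6*, *Cdh24*, *Pcdh7* and *Pcdh1*. This number was 2 without Control 2, beside 4.28% of all genes tested, 7 without *Snd1* KO 1, beside 14.3%, and 11 with clone quality weights, beside 32.6%. By voom, the limma method for counts, on the recovered reads it was 6, beside 8.72%. Every *Snd1* KO clone lay above every control clone in 5 genes, or 23.8%, beside 9.69% of all genes tested, and below in 1 gene, or 4.76%, beside 4.03%. Without Control 3 the genes with groups apart numbered 12 instead of 6, while over all genes their share went from 13.7% to 35.1%. Log2 fold changes were positive in 10 and negative in 11 genes, with a median of −0.04 beside 0.04 for all genes tested. This median had no stable sign, since it was 0.21 when clones were weighted by quality, −0.14 without *Snd1* KO 3 and 0.17 without *Snd1* KO 2. The median size of the log2 fold change was 0.44 beside 0.19, and the median standard error was 0.29 beside 0.22. By clone quality weights, which gave 0.279 to Control 3, 0.286 to *Snd1* KO 1 and 3.91 to *Snd1* KO 3, 3 of the 21 genes were called (*Cdh6*, *Pcdh1* and *Pcdh7*), beside 5.02% of all genes tested. *Cdh2*, *Cdh18*, *Cdh24* and *Pcdh17* had adjusted p-values of 0.0357, 0.0388, 0.0406 and 0.0492 by the same weights at under 2-fold.

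**Figure D3:**
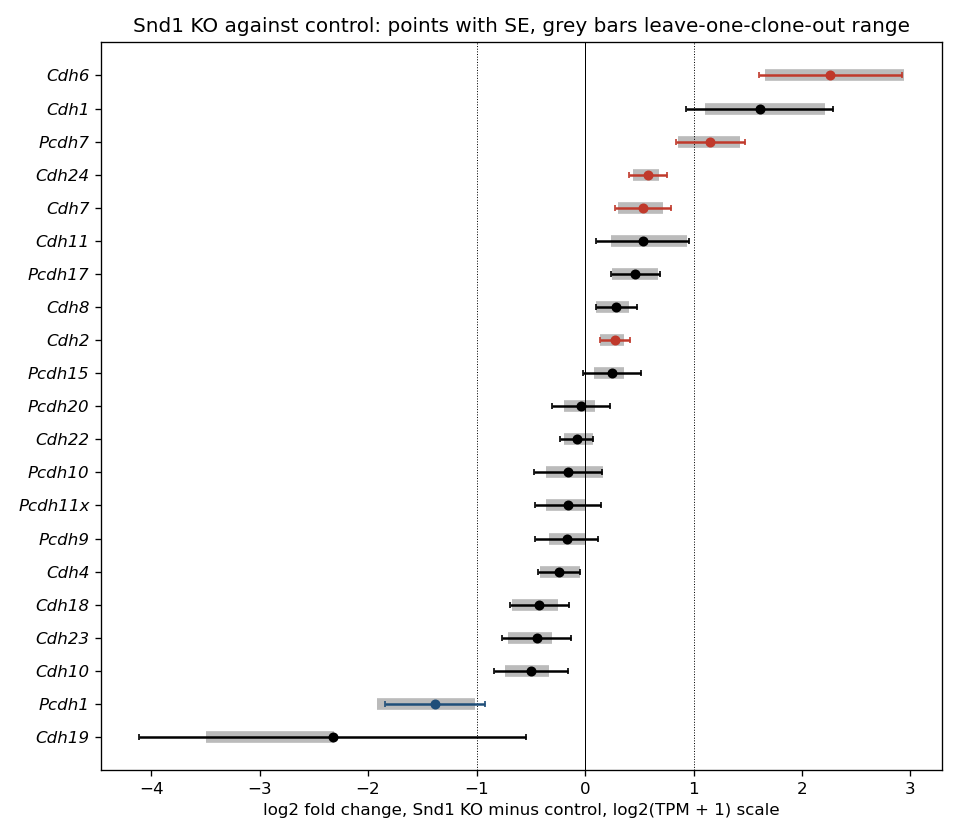
Log2 fold change of *Snd1* KO against control on the log2(TPM + 1) scale for the 21 genes tested, as points with the standard error from limma. Grey bars span the values with 1 clone left out in turn. Red and blue mark genes whose *Snd1* KO values all lie above or all below the control values, and dotted lines mark a 2-fold change. *Cdh6* stands highest at 2.26 and *Cdh19*, which rests on 1 clone, lowest at −2.33.

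Among the type I cadherins, *Cdh1* varied most from clone to clone. *Cdh1* (ENSMUSG00000000303, chromosome 8 from 106603351 to 106670246, plus strand, GRCm38) encodes E-cadherin, the cadherin of epithelial adherens junctions. Control 1, Control 2 and Control 3 had 10.5, 7.68 and 33.97 TPM, from 509, 352 and 1416 reads. In the *Snd1* KO lines it had 92.6, 48.1 and 20.7 TPM, from 4025, 2013 and 929 reads. Control 3 lay above *Snd1* KO 3, so the groups overlapped, while Control 1 and Control 2 lay below all *Snd1* KO clones. The means were 17.4 ± 14.4 and 53.8 ± 36.3 TPM (SD, n = 3 each), a ratio of 3.09 and a log2 fold change of 1.61 (standard error, SE, 0.68, adjusted p = 0.607, limma; exact permutation test, p = 0.2). It was 1.103 without *Snd1* KO 1 and 2.21 without Control 3.

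*Cdh2* encodes N-cadherin, the other cadherin long known from islet cells. It had 79.7, 83.7 and 83.1 TPM in control and 89.0, 92.5 and 121 TPM in *Snd1* KO clones. All 3 *Snd1* KO values were above all control values, and *Snd1* KO 3 stood apart from the other two. The means were 82.2 ± 2.17 and 101 ± 17.3 TPM (SD, n = 3 each), or a log2 fold change of 0.28 (SE 0.14, adjusted p = 0.613, limma). Leaving out *Snd1* KO 3 gave 0.14, and clone quality weights gave 0.47. After scaling each clone by its median ratio, and by voom on recovered reads, the groups overlapped. The per-length level of *Cdh1* over that of *Cdh2* was 0.164, 0.114 and 0.507 in control and 1.29, 0.644 and 0.213 in *Snd1* KO clones. *Snd1* KO 1 was the 1 clone in which E-cadherin mRNA exceeded N-cadherin mRNA on the per-length scale.

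*Cdh4* (ENSMUSG00000000305, chromosome 2 from 179442431 to 179899373, plus strand) had 151, 157 and 136 TPM in control and 159, 95.3 and 129 TPM in *Snd1* KO clones. *Snd1* KO 1 was the highest of all clones and *Snd1* KO 2 the lowest, so the groups overlapped. The log2 fold change was −0.24 (SE 0.19, adjusted p = 0.758, limma), with −0.046 without *Snd1* KO 2 and −0.41 without *Snd1* KO 1. The remaining type I genes were near the limit of detection. *Cdh3*, the P-cadherin gene 46.1 kb from *Cdh1*, reached 3, 3 and 8 reads among the control and 28, 4 and 12 reads among the *Snd1* KO lines, and its highest clone was that of *Cdh1*. *Cdh15*, the M-cadherin gene of muscle, reached 5, 5 and 8 reads among the control and 4, 2 and 2 among the *Snd1* KO lines.

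Of the 13 type II cadherins, 9 entered the test. *Cdh6* (ENSMUSG00000039385, chromosome 15 from 13028701 to 13173675, minus strand), which encodes K-cadherin of the developing kidney, had the largest positive log2 fold change of the 21 genes. In the control lines it had 1.63, 2.69 and 0.527 TPM, from 93, 146 and 26 reads. In the *Snd1* KO lines it had 3.62, 12.0 and 26.2 TPM, from 186, 596 and 1392 reads. Every *Snd1* KO clone was above every control clone, but *Snd1* KO 1 lay closer to Control 2 than to *Snd1* KO 2, and the highest clone was 49.7 times the lowest. The means were 1.62 ± 1.08 and 14.0 ± 11.4 TPM (SD, n = 3 each), a ratio of 8.63 and a log2 fold change of 2.26 (SE 0.66, adjusted p = 0.568, limma; exact permutation test, p = 0.1, the smallest that 3 clones against 3 can give). Leaving out *Snd1* KO 3 gave 1.66, and leaving out *Snd1* KO 1 gave 2.94. With clone quality weights it was called at an adjusted p of 0.0218, the lowest over the alternatives, whose highest was 0.986.

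*Cdh24* (ENSMUSG00000059674, chromosome 14 from 54631231 to 54641364, minus strand) encodes a type II cadherin. It had 16.3, 12.3 and 14.2 TPM in control and 18.6, 26.3 and 20.8 TPM in *Snd1* KO clones. Every *Snd1* KO clone was above every control clone, and the difference was under 2-fold. The means were 14.3 ± 1.99 and 21.9 ± 3.95 TPM (SD, n = 3 each), a ratio of 1.53 and a log2 fold change of 0.58 (SE 0.17, adjusted p = 0.568, limma; exact permutation test, p = 0.1). With 1 clone left out it lay between 0.45 and 0.68. Its adjusted p was 0.0406 with clone quality weights, the lowest over the alternatives, and 0.986 at most.

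*Cdh22* had 68.1, 78.0 and 71.1 TPM in control and 55.6, 71.9 and 80.3 TPM in *Snd1* KO clones. The *Snd1* KO clones held both the lowest and the highest value, and the log2 fold change was −0.08 (SE 0.15, adjusted p = 0.913, limma), positive without *Snd1* KO 1. *Cdh8* had 16.3, 15.7 and 18.9 TPM in control and 27.3, 17.6 and 18.9 TPM in *Snd1* KO clones, where *Snd1* KO 1 stood apart and *Snd1* KO 3 was level with Control 3. *Cdh18* had 5.49, 5.18 and 4.05 TPM in control and 5.26, 2.48 and 2.89 TPM in *Snd1* KO clones, where *Snd1* KO 1 lay among the controls and the other two below them. *Cdh7* had 2.55, 1.93 and 1.004 TPM in control and 2.87, 2.90 and 3.21 TPM in *Snd1* KO clones. Its groups did not overlap, with means of 1.83 ± 0.778 and 2.99 ± 0.191 TPM (SD, n = 3 each) and a log2 fold change of 0.54 (SE 0.26, adjusted p = 0.610, limma), but they overlapped after quantile normalization. *Cdh8* and *Cdh18* had log2 fold changes of 0.29 and −0.42 (adjusted p = 0.702 and 0.695, limma). Without *Snd1* KO 1 these were 0.10 and −0.68, *Cdh18* had −0.25 without *Snd1* KO 2, and *Cdh7* had 0.31 without Control 3.

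*Cdh10* and *Cdh11*, the latter the OB-cadherin of bone and mesenchyme, were low and scattered. *Cdh10* had 1.24, 1.502 and 0.421 TPM in control and 0.149, 0.320 and 0.874 TPM in *Snd1* KO clones. *Cdh11* had 1.118, 0.322 and 0.319 TPM in control and 1.65, 0.265 and 2.32 TPM in *Snd1* KO clones. In both genes the groups overlapped.

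*Cdh19* (ENSMUSG00000047216, chromosome 1 from 110888326 to 110977584, minus strand), a type II cadherin known from Schwann cell precursors, was present in 1 clone. Control 1, Control 2 and Control 3 had 0, 3066 and 2 reads, and the *Snd1* KO lines had 0, 1 and 0. Control 2 thus had 120 TPM, and all other clones had at most 0.0860 TPM. On the per-length scale its level in Control 2 was 82.2 TPM, beside 81.9 for *Cdh22* and 125 for *Cdh4* in the same clone. Its level in Control 2 was at least 930 times that of 3 reads in any other clone (0.129 TPM). The log2 fold change of −2.33 (SE 1.78, adjusted p = 0.751, limma) rests on this clone, and without Control 2 the gene did not pass the expression filter. Of 12 annotated genes within 1 Mb of *Cdh19*, *Cdh7* and *Dsel* had over 3 reads in a clone, and neither was highest in Control 2. *Cdh19* was the 1 protein-coding gene with at least 10 TPM in Control 2 and at most 3 reads in every other clone, and the number of such genes was 0 in Control 1, 1 in Control 3, and 3, 1 and 0 in *Snd1* KO clones 1 to 3. *Sox10*, a marker of Schwann cells and other glia, was at 0 in all clones.

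**Figure D4:**
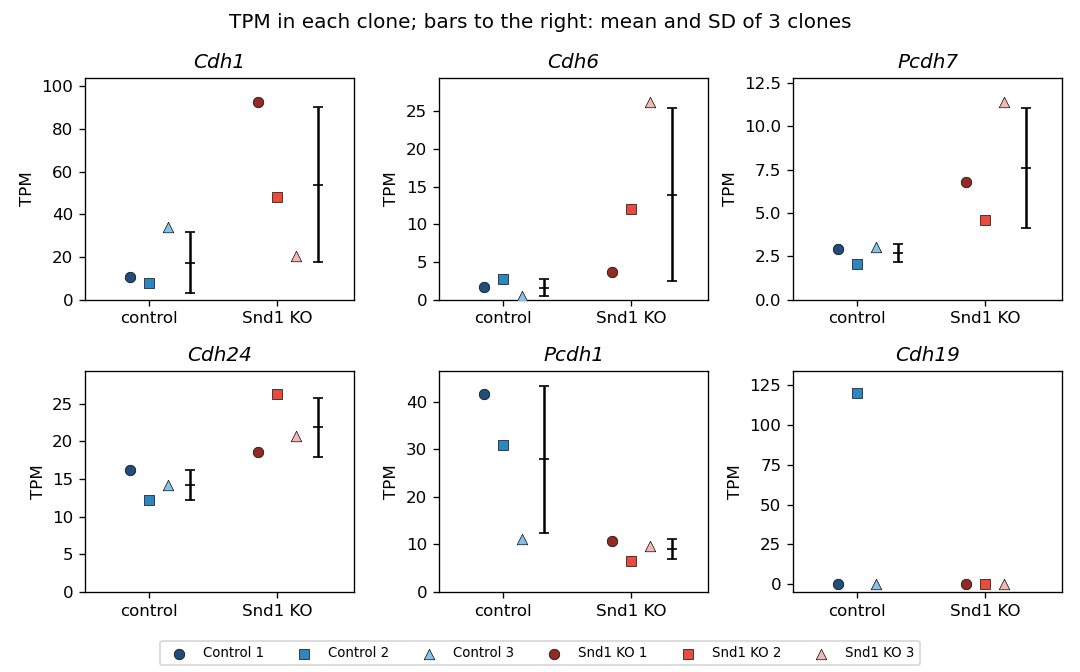
TPM of *Cdh1*, *Cdh6*, *Pcdh7*, *Cdh24*, *Pcdh1* and *Cdh19* in each clone, with bars for the mean and SD of the 3 clones of a group (none for *Cdh19*, which is present in 1 clone). Control and *Snd1* KO values stand apart in *Cdh6*, *Pcdh7*, *Cdh24* and *Pcdh1* and overlap in *Cdh1*, where Control 3 (33.97 TPM) lies above *Snd1* KO 3 (20.7 TPM).

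The δ-1 protocadherins are *Pcdh1*, *Pcdh7*, *Pcdh9* and *Pcdh11x*, and their cytoplasmic part can bind protein phosphatase 1. *Pcdh7* (ENSMUSG00000029108, chromosome 5 from 57717967 to 58133230, plus strand) had 2.90, 2.08 and 3.05 TPM in the control lines, from 407, 277 and 370 reads. In the *Snd1* KO lines it had 6.80, 4.58 and 11.4 TPM, from 859, 557 and 1488 reads. The groups did not overlap, with all *Snd1* KO values higher. The means were 2.68 ± 0.524 and 7.60 ± 3.48 TPM (SD, n = 3 each), a ratio of 2.83 and a log2 fold change of 1.16 (SE 0.32, adjusted p = 0.568, limma; exact permutation test, p = 0.1). It lay between 0.85 and 1.43 with 1 clone left out and was called with clone quality weights at an adjusted p of 0.0231, the lowest over the alternatives, whose highest was 0.986. Of its exonic bases, 21.1% are shared with exons of 4932441J04Rik on the other strand, so that reads there cannot be told apart without strand.

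*Pcdh1* (ENSMUSG00000051375), named protocadherin 1 and known from airway epithelium, went the other way. It had 41.5, 30.9 and 11.2 TPM in control and 10.6, 6.57 and 9.62 TPM in *Snd1* KO clones. Every *Snd1* KO clone was below every control clone, but Control 3 lay next to *Snd1* KO 1 and far from Control 1 and Control 2. The means were 27.9 ± 15.4 and 8.94 ± 2.12 TPM (SD, n = 3 each), or 32.1% of control in the *Snd1* KO group and a log2 fold change of −1.38 (SE 0.46, adjusted p = 0.585, limma; exact permutation test, p = 0.1). It was −1.91 without Control 3 and −1.01 without Control 1. With clone quality weights *Pcdh1* was called at an adjusted p of 0.0217, the lowest over the alternatives, whose highest was 0.986.

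The other δ-1 genes were low. *Pcdh9* had 0.934, 1.49 and 0.554 TPM in control and 1.15, 0.473 and 0.661 TPM in *Snd1* KO clones. *Pcdh11x* had 1.11, 0.922 and 0.320 TPM in control and 0.716, 0.265 and 0.770 TPM in *Snd1* KO clones. Both overlapped between the groups.

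The δ-2 protocadherins, several of which bind the WAVE complex that regulates actin, were led by *Pcdh17* and *Pcdh10*. *Pcdh17* had 19.7, 15.9 and 17.5 TPM in control and 24.8, 18.1 and 33.4 TPM in *Snd1* KO clones, where *Snd1* KO 2 lay within the controls. Its log2 fold change was 0.46 (SE 0.22, adjusted p = 0.609, limma), or 0.25 without *Snd1* KO 3. *Pcdh10* had 11.5, 12.6 and 8.25 TPM in control and 12.8, 5.62 and 11.5 TPM in *Snd1* KO clones. Its groups overlapped, with a log2 fold change of −0.16 (SE 0.31, adjusted p = 0.913, limma) that was 0.17 without *Snd1* KO 2.

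*Pcdh19*, *Pcdh8* and *Pcdh18* complete the δ-2 group and lay below the expression filter. *Pcdh19* reached 58, 41 and 34 reads among the control and 135, 33 and 80 among the *Snd1* KO lines. *Pcdh8* reached 12, 6 and 12 reads among the control and 24, 16 and 33 among the *Snd1* KO lines, and *Pcdh18* had 19, 28 and 17 and then 8, 22 and 40 reads. Only *Pcdh8* of these 3 had every *Snd1* KO clone above every control clone, at reads so few that counting error is large.

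*Cdh23* and *Pcdh15* encode the paired proteins of the tip link of inner ear hair cells. *Cdh23* had 2.06, 1.99 and 0.752 TPM in control and 0.606, 0.688 and 1.35 TPM in *Snd1* KO clones, with a log2 fold change of −0.44 (SE 0.32, adjusted p = 0.732, limma), or −0.71 without Control 3 and −0.85 by voom. Control 1 and Control 2 were highest and Control 3 lay among the *Snd1* KO clones. *Pcdh15* had 0.600, 0.564 and 1.005 TPM in control and 1.57, 0.803 and 0.824 TPM in *Snd1* KO clones, with a log2 fold change of 0.25 (SE 0.27, adjusted p = 0.813, limma), or 0.083 without *Snd1* KO 1 and 0.55 by voom. *Pcdh20*, a protocadherin outside the δ groups, had 1.74, 0.940 and 1.53 TPM in control and 1.24, 0.935 and 1.88 TPM in *Snd1* KO clones, with a log2 fold change of −0.04. In all 3 genes the groups overlapped.

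Of the 14 genes below the filter, 6 had over 30 reads in a clone. Beside the 3 protocadherins these were *Cdh12*, *Cdh16* and *Cdh17*, the last 2 of which encode cadherins of kidney and intestine that lack the catenin-binding tail. *Cdh12* reached 24, 22 and 23 reads among the control and 19, 13 and 59 among the *Snd1* KO lines. *Cdh16* had 2, 6 and 0 and then 35, 3 and 0 reads, so that *Snd1* KO 1 held most of them, and *Cdh17* had 20, 8 and 6 and then 6, 9 and 35 reads. The other 8 had at most 28 reads in any clone. They include *Cdh5*, which encodes the endothelial VE-cadherin and had at most 5 reads, and *Cdh13*, the T-cadherin that is held by a lipid anchor, with 9, 3 and 0 reads in control and 0 reads in every *Snd1* KO clone. *Cdh26* had at most 2 reads in every clone. In this low range the groups were apart in *Pcdh8*, *Cdh20* and *Pcdh12*, which were higher, and in *Cdh15* and *Cdh26*, which were lower in the *Snd1* KO clones, none of which entered the test. With no filter, groups were apart in 11 of the 35 genes, beside 10.4% of all genes then tested, and these low genes rest on few reads. The remaining genes were *Cdh3* and *Cdh15*, given above, and *Cdh9*, *Cdh20* and *Pcdh12*, with at most 11, 18 and 4 reads.

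Bases before the start sites of *Cdh6*, *Cdh24* and *Pcdh7* are shown, because these were the genes higher in every *Snd1* KO clone with an unadjusted p-value under 0.05. They come from RefSeq (GRCm38.p6), run 5′ to 3′ on the strand of the gene and end before the annotated gene, with CG dinucleotides in capitals. The *Cdh6* bases lie at chr15:13173676-13173925 (minus strand), those of *Cdh24* at chr14:54641365-54641614 (minus strand) and those of *Pcdh7* at chr5:57717831-57717966 (plus strand).
Cdh6: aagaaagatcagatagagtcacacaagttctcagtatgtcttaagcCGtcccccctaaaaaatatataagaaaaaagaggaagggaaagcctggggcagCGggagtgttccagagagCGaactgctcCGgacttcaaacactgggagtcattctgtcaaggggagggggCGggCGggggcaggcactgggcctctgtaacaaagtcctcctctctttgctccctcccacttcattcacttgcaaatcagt
Cdh24: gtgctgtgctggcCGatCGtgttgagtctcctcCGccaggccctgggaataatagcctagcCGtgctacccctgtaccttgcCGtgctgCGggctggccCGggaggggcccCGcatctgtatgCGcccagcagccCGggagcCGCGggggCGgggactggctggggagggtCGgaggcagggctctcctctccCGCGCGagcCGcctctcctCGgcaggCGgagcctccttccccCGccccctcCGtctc
Pcdh7: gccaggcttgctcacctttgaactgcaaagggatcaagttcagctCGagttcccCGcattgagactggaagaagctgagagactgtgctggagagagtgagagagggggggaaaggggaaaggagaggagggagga
The *Cdh6* stretch held 6 CG dinucleotides and 51.2% G and C, the *Cdh24* stretch 22 and 72.8% over the same 250 bases, and the *Pcdh7* stretch 2 and 55.9% over 136 bases. The *Pcdh7* stretch was cut where the annotated gene begins, and the full 250 bases of its promoter held 7 and 58.4%. The letters CAGGTG (or CACCTG on the other strand) and TATAAA (or TTTATA) were in none of the 3 stretches. RefSeq entries matched 22 of the 35 genes, with 25 promoters. Over the 250 bases before the start, their median was 10 CG dinucleotides and 58.4% G and C, beside 6 and 52.4% for all 32851 promoters. The promoters of genes that entered the test had a median of 13 CG dinucleotides and those of the genes below the filter 8.5. CAGGTG or CACCTG was in 12.0% of the cadherin promoters and in 17.2% of all promoters, and TATAAA or TTTATA in 8% and 12.4%.

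Several of these genes are neighbours in the genome. Chromosome 8 holds 8 of the 35, and chromosomes 14 and 15 hold 5 each. On chromosome 15, groups were apart in 1 of 5 genes, *Cdh6*, beside 10.4% of all genes with no filter. The groups overlapped in *Cdh9*, *Cdh10*, *Cdh12* and *Cdh18*, of which *Cdh9* and *Cdh12* lay below the filter. A count over 5 genes shows nothing on the chromosome. On chromosome 8, *Cdh1*, *Cdh3*, *Cdh8* and *Cdh16* were highest in *Snd1* KO 1 and the other genes in other clones, while *Pcdh12*, 55.0 kb from *Pcdh1* on chromosome 18, had at most 4 reads.

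Control 3 lay nearer to the *Snd1* KO clones than to its own group in several of these genes, at a share close to that of all genes. In 13 of the 21 genes (61.9%) it was nearer to the mean of the *Snd1* KO clones than to the mean of Control 1 and Control 2 on the log2(TPM + 1) scale, beside 58.6% of all genes tested, and the same count was not made for other clones. The 13 include *Cdh1*, *Pcdh1*, *Cdh23* and *Cdh10* but not *Cdh6*, *Pcdh7*, *Cdh24* or *Cdh7*. The summed fibroblast markers were likewise apart in that clone, with 7.35, 6.82 and 0.379 TPM in Control 1 to Control 3 and 1.58, 1.06 and 1.505 TPM in the *Snd1* KO lines. The summed alpha and delta cell markers were highest in *Snd1* KO 1, at 1102 TPM, the clone highest in *Cdh1*, and next in Control 3, at 314 TPM. The part of these differences in the results was not tested.

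The list of catenins, adaptors and related genes held no called gene. Their deposited TPM summed to 605 to 623 in control and 667 to 704 in *Snd1* KO clones. These sums did not overlap, but no share over all genes stands beside them. The deposited TPM divide by the summed exons of all transcripts, so the genes do not count equally in such a sum. Of 13 genes, 12 were tested by limma, 0 reached an unadjusted p-value under 0.05, beside 7.96% of all genes, and the median log2 fold change was 0.11 beside 0.04. *Ctnna1*, which encodes α-catenin, had 193, 194 and 180 TPM in control and 252, 210 and 205 TPM in the *Snd1* KO lines. Every *Snd1* KO clone was above every control clone, with a log2 fold change of 0.23 (SE 0.12, adjusted p = 0.628, limma) that was 0.13 without *Snd1* KO 1, and *Afdn* (afadin), named after its values were seen, was the other of the 12 tested genes with groups apart, so that 2 of 12 were apart beside 13.7% of all genes tested. *Ctnnb1*, the β-catenin gene, had 136, 133 and 123 TPM in control and 117, 129 and 146 TPM in the *Snd1* KO lines, with a log2 fold change of −0.01 (SE 0.12, adjusted p = 0.994, limma). *Jup*, which encodes plakoglobin, had 49.4, 44.5 and 61.1 TPM in control and 52.8, 90.1 and 79.0 TPM in *Snd1* KO clones, where *Snd1* KO 1 lay within the controls. Its log2 fold change was 0.49 (SE 0.22, adjusted p = 0.607, limma), or 0.72 at an adjusted p of 0.0233 with clone quality weights, under 2-fold. *Ctnnd1*, which encodes p120-catenin, had 0.386 to 0.818 TPM in control and 0.651 to 0.946 TPM in *Snd1* KO clones. These TPM do not show a low level beside other genes, because they divide by the summed exons of 30 annotated transcripts. Each clone gave between 328 and 724 recovered reads for *Ctnnd1*, and no per-length level is given for it. The reads are uncertain too, since 61.2% of its exonic bases are shared with the annotated gene Gm28635.

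The wider list of 18 other genes of the cadherin superfamily had 13 tested, of which 1 was higher and 3 were lower at an unadjusted p-value under 0.05, beside 7.96% of all genes in either direction, with a median log2 fold change of 0.40. *Cdhr2* and *Cdhr5* encode the protocadherins that link the tips of microvilli in the brush border. *Cdhr2* had 93.8, 48.2 and 13.4 TPM in control and 11.1, 5.99 and 9.81 TPM in *Snd1* KO clones, and *Cdhr5* had 3.83, 1.82 and 1.26 and then 0.521, 0.484 and 0.292 TPM. In both genes every *Snd1* KO clone was below every control clone, and in *Cdhr2*, as in *Pcdh1*, Control 3 lay next to *Snd1* KO 1. Their log2 fold changes were −2.06 and −1.13 (adjusted p = 0.570 and 0.568, limma). *Cdhr5* passed the expression filter only through the control clones, so its difference, its call below and its place among the 3 lower genes are no independent result. With clone quality weights *Cdhr2* and *Cdhr5* were called, at −2.54 and −1.38 (adjusted p = 0.0226 and 0.0286, limma). *Cdhr2* ran from −2.81 to −1.45 with 1 clone left out, and *Cdhr5* was −2.30 by voom. The other genes past that limit were *Clstn2*, lower, and *Celsr3*, higher, named after their values were seen, both by less than 2-fold.

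Of 15 genes of other cell junctions, 12 were tested, of which 2 were higher and 1 lower at an unadjusted p-value under 0.05, beside 7.96% of all genes. Both higher genes, *Cldn3* and *Ocln*, had control means under 0.5 TPM and passed the filter only through the *Snd1* KO clones, so this count supports nothing on the list. *Cldn3*, which encodes the tight junction protein claudin-3, reached 1, 2 and 0 reads among the control and 24, 21 and 5 among the *Snd1* KO lines, all of the latter higher (log2 fold change 1.53, adjusted p = 0.568, limma). *Ocln*, the occludin gene, had 0, 0.0157 and 1.40 TPM in control and 7.07, 2.22 and 0.980 TPM in *Snd1* KO clones, with Control 3 above *Snd1* KO 3 as in *Cdh1* (log2 fold change 1.47, adjusted p = 0.607, limma). Leaving out *Snd1* KO 1 gave 0.91 for *Ocln*, and voom on recovered reads gave 5.44 for *Ocln* and 3.54 for *Cldn3*, while clone quality weights gave 1.11 and 0.79. The gene that was lower, named after its values were seen, was *Nectin2*, by less than 2-fold. *Gjd2*, the gene of the β cell gap junction protein connexin 36, had 187, 147 and 199 TPM in control and 144, 177 and 194 TPM in the *Snd1* KO lines, with a log2 fold change of −0.05 (SE 0.17, adjusted p = 0.951, limma). *Epcam*, an epithelial adhesion molecule named after its values were seen, had 0.770, 0.451 and 1.78 TPM in control and 234, 9.47 and 2.39 TPM in *Snd1* KO clones, in the same order of clones as *Cdh1* within the *Snd1* KO group.

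**Figure D5:**
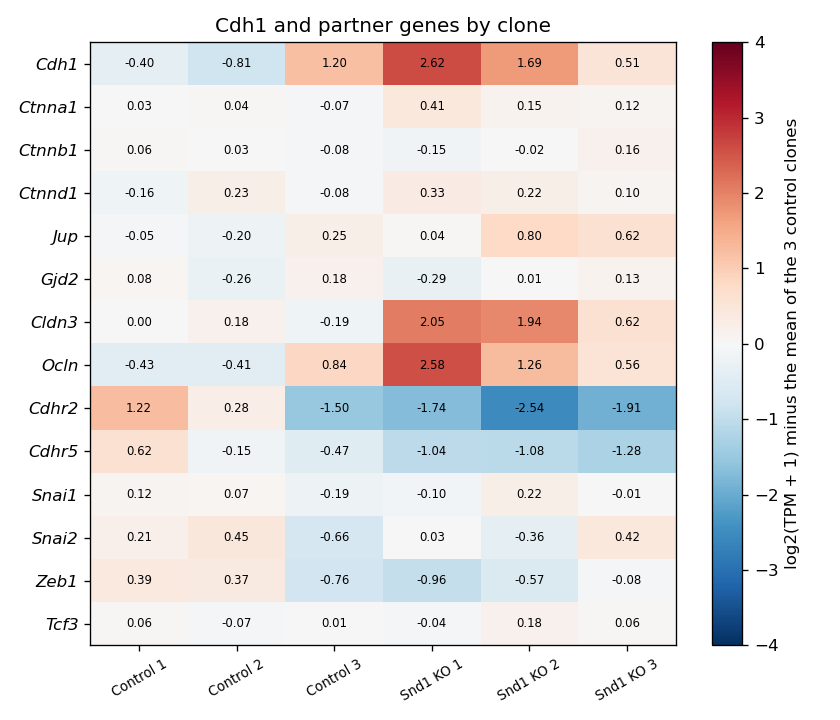
Log2(TPM + 1) in each clone minus the mean of the 3 control clones, for *Cdh1*, catenins, junction genes, brush border cadherins and transcription factors that repress *Cdh1*. Red is above and blue below the control mean, and the number in each cell is that difference. *Cdh1*, *Cldn3* and *Ocln* are highest in *Snd1* KO 1, *Cdhr2* and *Cdhr5* are below the control mean in all *Snd1* KO clones, and *Ctnna1* and *Ctnnb1* stay within 0.41 of it.

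Desmosomal genes were sparse, since 8 of 13 had at most 3 reads in every clone and 3 were tested (1 of them through the *Snd1* KO clones only), with 0 at an unadjusted p-value under 0.05, beside 7.96% of all genes, and a median log2 fold change of 0.57. Of 8 transcriptional repressors of E-cadherin, 4 were tested and 0 reached an unadjusted p-value under 0.05, beside 7.96% of all genes, with a median log2 fold change of 0.03. Some genes of that list are named after their values were seen. *Zeb1* had 19.7, 19.4 and 8.31 TPM in control and 7.11, 9.63 and 13.9 TPM in *Snd1* KO clones. *Snai2* had 28.2, 33.4 and 14.996 TPM in control and 24.7, 18.6 and 32.8 TPM in *Snd1* KO clones, and *Twist1* had 19 reads in *Snd1* KO 1 and 0 in the other clones. In *Zeb1* and *Snai2* the groups overlapped. The 7 genes of cadherin cleavage and turnover, among them the proteases *Adam10* and *Adam15* and subunits of γ-secretase, were all tested, and 1 (*Adam15*, named after its values were seen) was lower at an unadjusted p-value under 0.05, beside 7.96% of all genes in either direction, with a median log2 fold change of −0.15.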

How the data were processed

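RNA of 6 clonal MIN6 lines (3 control and 3 *Snd1* KO, groups from the sample labels) was measured, with 1 library per clone. The authors isolated RNA with an integrity number of at least 7, made cDNA and Nextera XT libraries, sequenced paired ends on a NovaSeq, and deposited TPM per gene, made on the Genialis platform. The submitters' processing notes name FastQC, Trimmomatic, HISAT2, HTSeq, DESeq2 and mm10, without versions, and no role is taken from them here. The files list 53801 mouse genes, 92 ERCC and 7 SIRV spike-in controls, which were left out. GENCODE M21 matched 53706 genes. TPM times the exon length summed over transcripts gave whole reads, within 0.01, for 93.3% to 93.8% of values above 0 per clone. For 1777 further genes a length that made the reads whole was searched, which brought the share to 99.996% by construction. These reads cover counting error only.

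Where the mean over the clones reached 0.5 TPM, log2(TPM + 1) was compared by limma 3.58.1 (lmFit, eBayes with trend; R 4.3.3), and p-values were adjusted by Benjamini-Hochberg over all genes tested. Fold changes on this scale understate those of low genes. Single genes were also compared by exact two-sided permutation tests of 3 clones against 3, which cannot go below 0.1. Alternatives were a pseudocount of 0.1, no filter, a minimum mean of 5 TPM, quantile normalization, median ratio scaling, clone quality weights, a replicate block, each clone left out, no minimum fold change, voom on recovered reads, and each exonic base counted once. The rest was done in Python 3.11.15 (pandas 2.3.3, numpy 2.4.6, matplotlib 3.10.9).

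The gene family and the lists were chosen with earlier results of these data known, and the members of the family follow from their names. Genes of the family that passed the filter, or had over 30 reads in a clone, are named with their values, as are *Ctnna1*, *Ctnnb1*, *Ctnnd1*, *Jup*, *Gjd2* and *Snd1*, and up to 3 genes per other list with an unadjusted p-value under 0.05 and a 2-fold change. Guide sequences were not used here.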

Additional observations from a re-analysis of the deposited data

How the results depend on the processing

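Over the alternatives, 284 log2 fold changes of the 21 cadherin genes were compared with the reported ones. Of these, 273 kept their direction and their side of the threshold, 3 passed it (*Cdh6*, *Pcdh1* and *Pcdh7*, with clone quality weights) and 8 in 4 genes changed direction, which left 17 genes with none. With clone quality weights, *Cdh22* was 0.074, *Pcdh20* 0.25, *Ctnnb1* 0.084 and *Gjd2* 0.19. With 1 clone left out, the log2 fold change ran from −0.19 to 0.071 in *Cdh22*, −0.36 to 0.17 in *Pcdh10*, −0.19 to 0.093 in *Pcdh20*, −0.34 to 0.0047 in *Pcdh9*, −0.089 to 0.068 in *Ctnnb1* and −0.18 to 0.0700 in *Gjd2*. The cause was not tested.

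Genes called over all genes numbered 1 as reported, 895 with clone quality weights, 0 without a filter, 0 by voom on recovered reads, and 0 to 2 with 1 clone left out (2 without *Snd1* KO 2). Cadherin genes called numbered 3 with clone quality weights and 0 under every other alternative run, with 1 clone left out included, beside 4 at an unadjusted p-value under 0.05 by limma and 6 by voom (8.72% of all genes). Cadherin genes whose groups did not overlap numbered 6 as reported (13.7% of all genes), 11 without a filter, where more genes enter (10.4%), 5 at a minimum mean of 5 TPM (14%), 5 by voom (14.2%), where *Cdh2* was lost, and 6 to 12 with 1 clone left out (12 without Control 3, beside 35.1%). Of all genes with groups apart, 70.6% were higher in *Snd1* KO clones as reported, 54.0% after median ratio scaling and 46.8% after quantile normalization. Under these scalings 4 cadherin genes were above and 1 below, since *Cdh2* was lost under the first and *Cdh7* under the second.

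Clone numbers did not pair the samples. The correlation of same-numbered clones' deviations from their group means was 0.12, −0.20 and −0.11. With a replicate block by clone number, 0 genes were called over all genes, 0 cadherin genes were called and 6 had groups apart.

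The 14 genes below the filter had at most 135 reads in a clone, and 8 of them at most 28, which limits their precision. The 3 clones per group limit the others.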
